A study of Mus musculus with 12 samples.

Results

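The genes described here are 10 genes of the extracellular matrix of the liver and of the cells that make it: Col1a1, Col1a2, Col3a1, Col4a1, Col4a2, Sparc, Lum, Dcn, Bgn and Vim. Every probe set whose single gene symbol is one of these was taken, whatever its values. This gave 13 of the 9622 probe sets of the table, for 8 of the 10 genes; Col1a1 and Lum had no such probe set and are not analysed here. The arrays were hybridized with liver RNA of untreated 8-week-old male C57BL/6 mice of 4 genotypes, with 3 mice per genotype and 1 array per mouse. Keap1-HKO mice came from a cross of Keap1-KD mice with mice that carry Cre recombinase under the albumin promoter (AlbCre+), so that Keap1 is deleted in hepatocytes and the other cells of the liver still carry the Keap1-KD allele. Keap1-KD mice carry a floxed Keap1 gene that lowers Keap1 throughout the body, Nrf2-null mice lack Nrf2 in every cell, and Wild-type mice carry neither change. The values are gcRMA values on the log2 scale, on which a difference of 1 is a 2-fold change in intensity.

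Collagens I and III form the fibrils of the liver matrix and the capsule, and collagen IV forms the sheet of the basement membrane around vessels, bile ducts and nerves. In the healthy liver most of these mRNAs are made by hepatic stellate cells, portal fibroblasts, endothelial cells and vascular smooth muscle and very little by hepatocytes, and stellate cells that become activated raise them together with vimentin. Keap1 holds the transcription factor Nrf2 in the cytoplasm and directs its degradation, so that the genotypes form a series of Nrf2 activity that is lowest in Nrf2-null mice and highest in Keap1-HKO hepatocytes. Nrf2 binds the antioxidant response element (ARE), whose core is TGACNNNGC.

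Stretches at the start sites are shown for Col4a1 and Col4a2, whose first bases overlap. They are also shown for genes that differed much from mouse to mouse, of which Col1a2, Col3a1 and Vim were taken. Sequences are from RefSeq (GRCm38.p6), in windows of 250 bases before and 50 bases after the start, and 7 of the 8 measured genes had a window. Col4a1, on the minus strand of chromosome 8, and Col4a2, on the plus strand, are transcribed in opposite directions, and their first bases overlap. The stretch from the start of Col4a2 to the start of Col4a1, both included, is 22 bases and lies within both genes. Capitals mark a match to a motif searched on both strands. The motifs were the ARE core TGACNNNGC, the CCAAT box (CCAAT, which reads ATTGG on the other strand) and the TATA box (TATAAA).
Col4a2 start to Col4a1 start, chr8:11312805-11312826, plus strand: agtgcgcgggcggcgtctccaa
Col4a2 upstream, chr8:11312723-11312747, plus strand: gggtgcggTGACTCTGCgcagagac
Col1a2 upstream, chr6:4505498-4505617, plus strand: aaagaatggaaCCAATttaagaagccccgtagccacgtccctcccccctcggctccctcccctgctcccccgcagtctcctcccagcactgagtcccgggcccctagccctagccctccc
Col3a1 upstream, chr1:45311418-45311537, plus strand: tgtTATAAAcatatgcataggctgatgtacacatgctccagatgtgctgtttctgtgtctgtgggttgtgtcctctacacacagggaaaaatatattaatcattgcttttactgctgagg
Vim upstream, chr2:13574191-13574310, plus strand: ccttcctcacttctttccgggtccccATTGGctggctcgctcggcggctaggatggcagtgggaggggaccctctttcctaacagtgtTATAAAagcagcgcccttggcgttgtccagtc

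The ARE core had a match in 1 of the 7 windows, that of Col4a2, at positions -74 to -66 from its start. This match lies on the transcribed side of the Col4a1 start, outside the Col4a1 window. Of all 32851 windows of this length, 12.4% held the ARE core. The CCAAT box was found in the windows of Col1a2, Col4a1, Col4a2 and Vim and in 37.4% of all windows, and the TATA box in those of Col3a1 and Vim and in 13.6% of all windows. No matches overlapped. A match is a run of letters only, and occupancy was not measured here.

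The targeted genes followed the labels on every array. Keap1 lay between 3.34 and 3.39 in Keap1-HKO livers, between 5.59 and 5.92 in Keap1-KD livers and between 7.80 and 7.97 in Wild-type livers, and Nfe2l2, which encodes Nrf2, lay between 2.29 and 2.46 in Nrf2-null livers and between 8.81 and 8.94 in Wild-type livers. Nqo1, a target of Nrf2, lay between 9.56 and 10.42 in Keap1-HKO livers, between 6.51 and 7.29 in Keap1-KD livers, between 3.16 and 3.88 in Nrf2-null livers and between 4.51 and 4.87 in Wild-type livers. Replicate 1 of the Keap1-HKO livers and replicate 1 of the Nrf2-null livers stood apart from the other arrays of their genotypes, with a mean absolute deviation from the median of their genotype of 0.785 and 0.487 over all genes tested. That of the other 10 arrays was between 0.0634 and 0.177.

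A set of 3 arrays carried mRNA of other organs. On replicates 2 and 3 of the Keap1-HKO livers and on replicate 2 of the Wild-type livers the median of 14 measured skeletal muscle genes (of 26 listed) was 10.58, 9.20 and 10.10, against 2.38 to 3.04 on the other 9 arrays. On replicates 2 and 3 of the Keap1-HKO livers the median of 16 measured pancreatic acinar genes (of 35 listed) was 13.57 and 10.35, against 2.35 to 2.55 on the other 10 arrays. Summed over the list, muscle intensity ranged from 589 to 37492 in Keap1-HKO livers, from 458 to 593 in Keap1-KD livers, from 293 to 495 in Nrf2-null livers and from 299 to 27107 in Wild-type livers. Pancreatic intensity ranged from 527 to 237796 in Keap1-HKO livers, from 516 to 731 in Keap1-KD livers, from 1158 to 1373 in Nrf2-null livers and from 716 to 1341 in Wild-type livers. Acta1, skeletal muscle actin, read 12.75, 11.23 and 12.31 on the 3 arrays and at most 4.09 on the others. Muscle and pancreas have matrix-producing cells of their own, and the part of this mRNA in the values of the matrix genes was not tested. The differences of the members are therefore given without these 3 arrays too where they moved most, with the 1 Keap1-HKO array that this leaves taken to vary like the other genotypes. In RNA of whole liver, fewer cells of a type and less RNA per cell cannot be told apart.

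**Figure D1:**
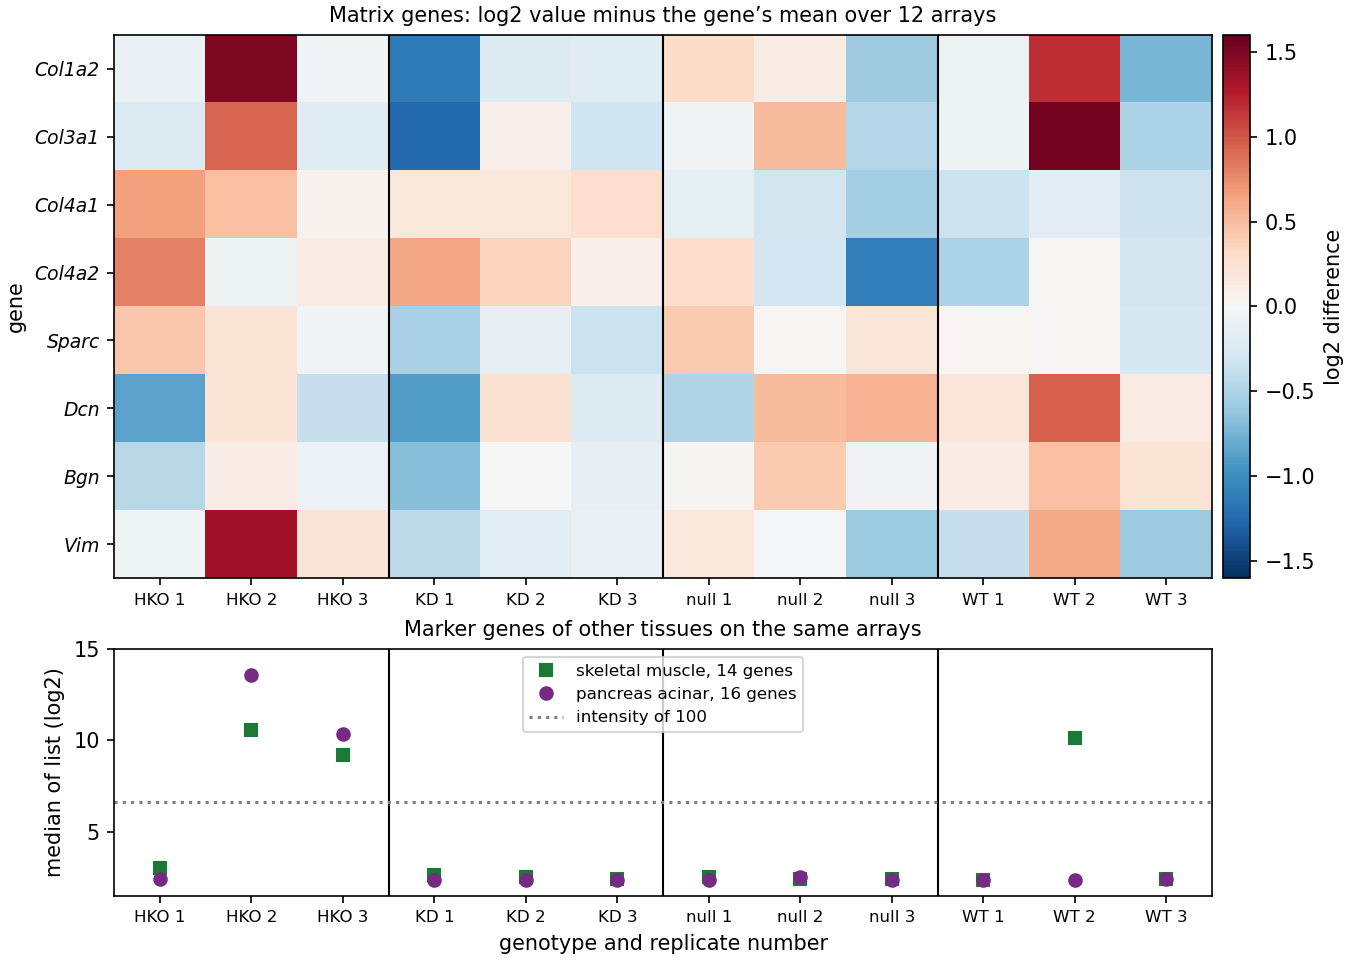
Upper panel, log2 value of each of the 8 measured matrix genes minus its mean over the 12 arrays (color), with the arrays grouped as Keap1-HKO, Keap1-KD, Nrf2-null and Wild-type. Lower panel, median log2 value of 14 skeletal muscle and 16 pancreatic acinar genes on the same arrays, which is over 9 only on Keap1-HKO replicates 2 and 3 and, for muscle, Wild-type replicate 2.

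Of the matrix genes only Col4a1 differed between genotypes after adjustment over all 5856 genes tested, and only between Keap1-HKO and Nrf2-null livers (limma, adjusted p under 0.05). None of the 8 measured genes passed in Keap1-HKO against Wild-type livers, where 3.94% of all genes did. At an unadjusted p under 0.05 the count was 1, Col4a1, against 18.6% of all genes, and Duncan's test of the study's methods called the same gene alone, against 12% of all genes. None passed in Keap1-KD against Wild-type livers (0.0683% of all genes), where the unadjusted p was under 0.05 for Col4a1, which was higher, and Bgn, which was lower (2.54% of all genes), and Duncan's test called Col4a1 (2.25%). In Nrf2-null against Wild-type livers the count was 0 of 8 by limma with and without adjustment (0.41% and 6.92% of all genes) and 0 by Duncan's test (5.4%). Between Keap1-HKO and Keap1-KD livers it was 0 of 8 by limma (1.43%), and Sparc alone had an unadjusted p under 0.05 (12.8%) and a call by Duncan's test (9.61%). Col4a1 was the 1 of 8 that passed between Keap1-HKO and Nrf2-null livers, where 9.14% of all genes did, and the count between Keap1-KD and Nrf2-null livers was 0 (1.37%), with Col4a1 and Sparc at an unadjusted p under 0.05 (10.5%) and called by Duncan's test (7.91%).

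**Figure D2:**
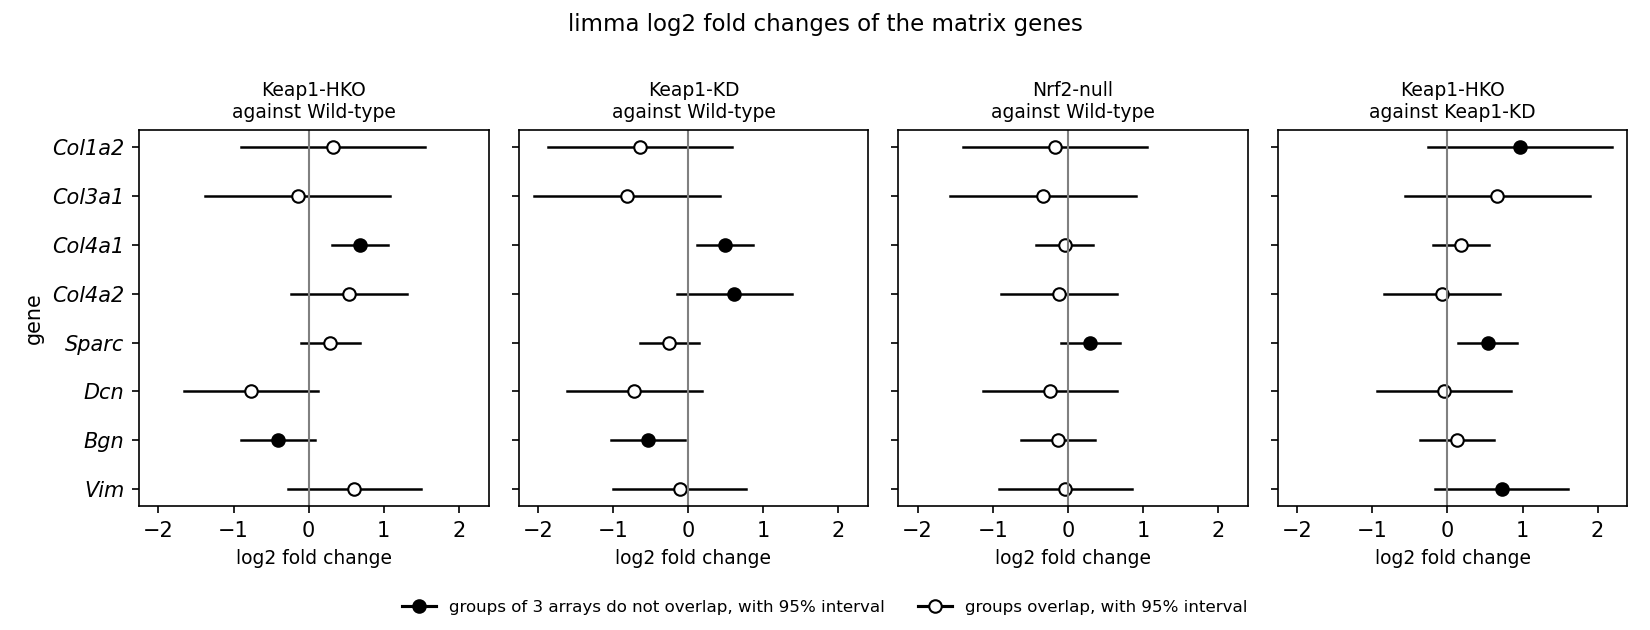
Log2 fold change (x axis) of each matrix gene (y axis) in 4 comparisons, with its 95% interval from limma. Filled circles are genes whose groups of 3 arrays do not overlap, and the narrowest intervals are those of Col4a1 and Sparc.

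Col4a1 was the member whose groups were most clearly apart, with higher means in Keap1-HKO and Keap1-KD livers than in Nrf2-null and Wild-type livers. Col4a1 encodes the chain that occurs in 2 copies in the common collagen IV molecule of basement membranes. Its log2 values were 8.73, 8.55 and 8.13 in Keap1-HKO livers, 8.26, 8.26 and 8.34 in Keap1-KD livers, 7.93, 7.78 and 7.53 in Nrf2-null livers and 7.74, 7.90 and 7.74 in Wild-type livers. Every Keap1-HKO and Keap1-KD array lay above every Nrf2-null and Wild-type array. On the unlogged scale the Keap1-HKO mean was 62.3% ± 19.2 and the Keap1-KD mean 40.8% ± 2.81 above the Wild-type mean. The Nrf2-null mean differed from it by -2.54% ± 7.63. Each ± is the SEM of that genotype alone (n = 3) in percent of the Wild-type mean. It leaves out the SEM of the Wild-type mean itself, 3.92%.

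The log2 fold change of Col4a1 between Keap1-HKO and Nrf2-null livers was 0.72 ± 0.17 (SE, adjusted p = 0.0243 by limma). Against Wild-type livers it was 0.68 ± 0.17 in Keap1-HKO livers, with a 95% interval of 0.31 to 1.05 and an adjusted p of 0.0545, just outside the threshold. In Keap1-KD livers it was 0.50 ± 0.17 against Wild-type (adjusted p = 1) and 0.54 ± 0.17 against Nrf2-null livers (adjusted p = 0.216). Keap1-HKO and Keap1-KD livers differed by 0.18, with a 95% interval of -0.19 to 0.56. The Keap1-HKO array without muscle or pancreas mRNA, replicate 1, had the highest Col4a1 value of the 12, and it is also an array that stood apart from its genotype.

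Col4a2 encodes the partner chain of Col4a1. Its values were 7.52, 6.63 and 6.84 in Keap1-HKO livers, 7.34, 7.08 and 6.80 in Keap1-KD livers, 7.0, 6.41 and 5.60 in Nrf2-null livers and 6.21, 6.74 and 6.42 in Wild-type livers. The Keap1-KD arrays lay above the Wild-type arrays without overlap, by 0.61 (95% interval -0.16 to 1.38, adjusted p = 1), and Keap1-HKO livers differed from Wild-type by 0.54 (-0.23 to 1.31, adjusted p = 0.406) with overlap. Without the 3 arrays with muscle or pancreas mRNA the difference between Keap1-HKO and Wild-type livers was 1.199 (adjusted p = 0.0942). The Nrf2-null and Wild-type means, at intensities of 87.2 and 88.8, lay under the intensity of 100 that the authors required of at least 1 genotype, so Col4a2 is in the table only through its Keap1-HKO and Keap1-KD means and its direction is no support for that of Col4a1.

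**Figure D3:**
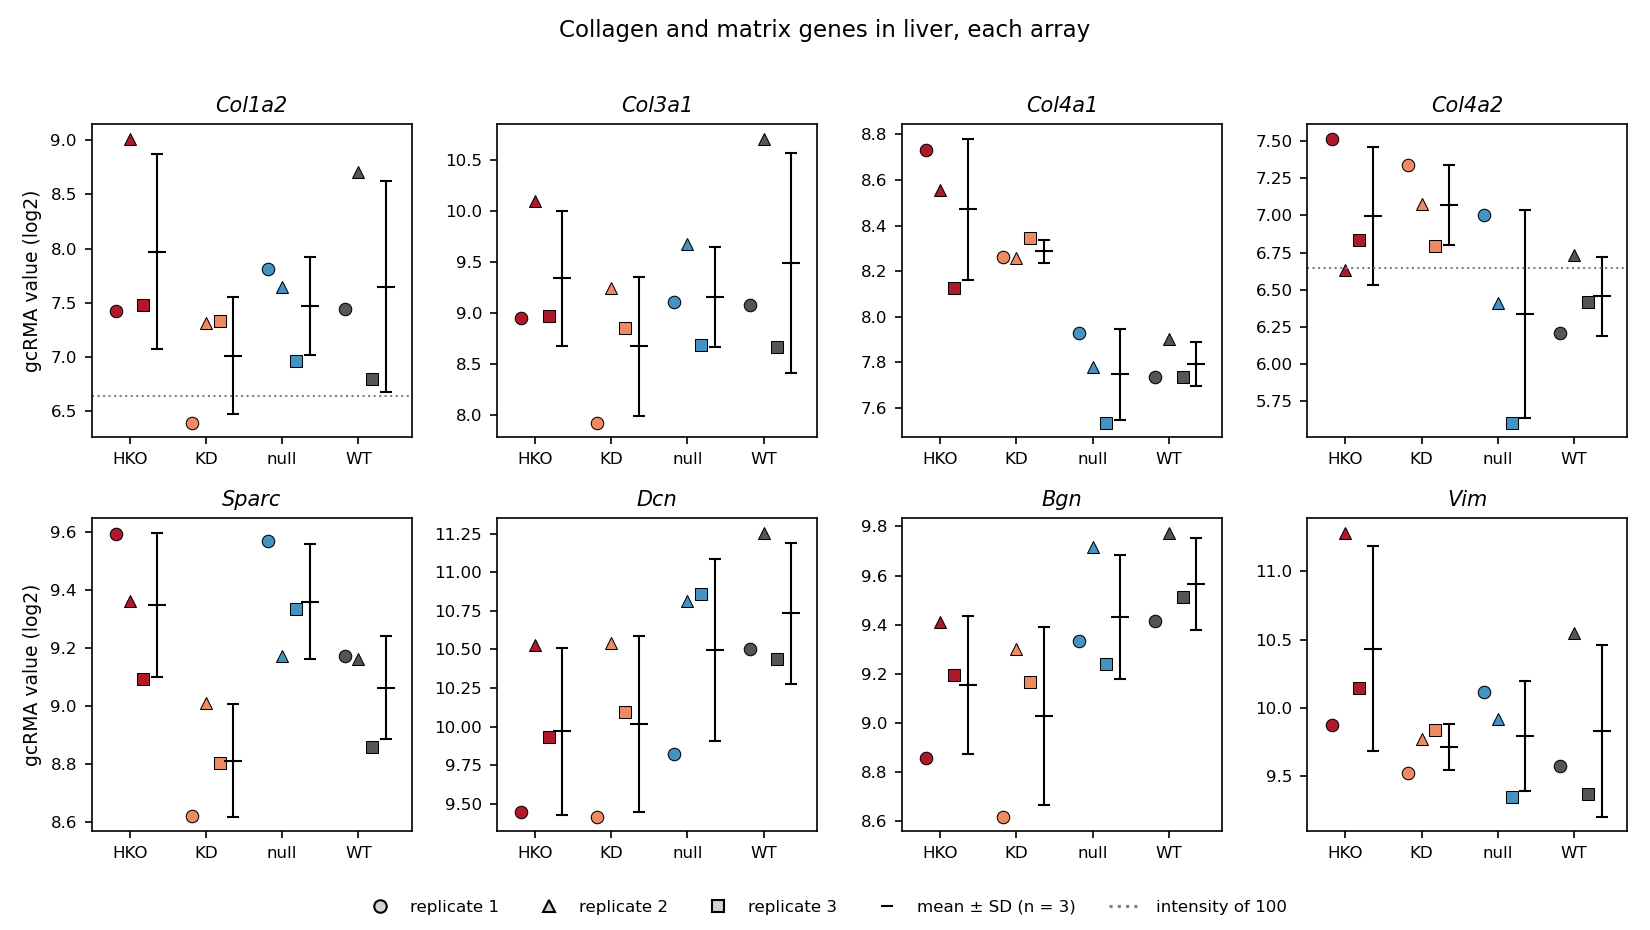
Log2 value (y axis) of each matrix gene on each of 12 arrays, by genotype (HKO, Keap1-HKO; KD, Keap1-KD; null, Nrf2-null; WT, Wild-type), with the mean and SD of 3 mice beside the points. Col4a1 lies above 8.1 on all 6 arrays with less Keap1 and below 8.0 on the other 6, whereas Col1a2, Col3a1 and Vim each have a high replicate 2 in Keap1-HKO and in Wild-type livers.

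The fibrillar collagens differed widely between mice of 1 genotype, most in Wild-type livers. Col1a2 encodes the second chain of collagen I. Its values were 7.43, 9.01 and 7.48 in Keap1-HKO livers, 6.39, 7.31 and 7.34 in Keap1-KD livers, 7.82, 7.64 and 6.96 in Nrf2-null livers and 7.44, 8.71 and 6.80 in Wild-type livers. Replicate 2 of the Keap1-HKO livers and replicate 2 of the Wild-type livers were the highest arrays, and both carried muscle mRNA. Col3a1, the chain of collagen III, read 8.95, 10.10 and 8.97 in Keap1-HKO livers, 7.92, 9.25 and 8.85 in Keap1-KD livers, 9.11, 9.67 and 8.69 in Nrf2-null livers and 9.08, 10.71 and 8.67 in Wild-type livers. The same 2 arrays were highest, in the other order. Replicate 3 of the Keap1-HKO livers, which also carried muscle and pancreas mRNA, lay close to replicate 1 for both genes. The range of Col1a2 within Wild-type livers was 1.91 and that of Col3a1 2.03.

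Neither fibrillar collagen passed the test in any of the 6 comparisons. The 95% intervals against Wild-type livers were wide: -0.90 to 1.55 for Col1a2 and -1.38 to 1.09 for Col3a1 in Keap1-HKO livers, -1.86 to 0.59 for Col1a2 and -2.05 to 0.42 for Col3a1 in Keap1-KD livers, and -1.40 to 1.05 for Col1a2 and -1.56 to 0.91 for Col3a1 in Nrf2-null livers. The largest difference in means was that of Col1a2 between Keap1-HKO and Keap1-KD livers, 0.96 (adjusted p = 0.491), with no overlap of the groups. Without the 3 arrays that carried muscle or pancreas mRNA it was 0.41, and the difference of Keap1-KD from Wild-type livers was -0.11 for Col1a2 and -0.20 for Col3a1, against -0.64 and -0.81 with all arrays.

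Vim encodes vimentin, the intermediate filament of mesenchymal cells and a marker of stellate cells, endothelium and leukocytes. Its values were 9.87, 11.28 and 10.15 in Keap1-HKO livers, 9.53, 9.77 and 9.84 in Keap1-KD livers, 10.12, 9.92 and 9.35 in Nrf2-null livers and 9.58, 10.55 and 9.37 in Wild-type livers. Its highest arrays, replicate 2 of the Keap1-HKO and replicate 2 of the Wild-type livers, were those of the fibrillar collagens. The Keap1-HKO arrays lay above the Keap1-KD arrays without overlap, by 0.72 (95% interval -0.16 to 1.61, adjusted p = 0.478), and by 0.16 once the 3 arrays with muscle or pancreas mRNA were left out. Against Wild-type livers the log2 fold change was 0.60 in Keap1-HKO livers (adjusted p = 0.416), with overlap, and 0.40 without the 3 arrays. The other probe sets of the gene gave 0.74 and 0.76 in that comparison, with adjusted p-values of 0.25 and 0.285 over all probe sets.

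Sparc encodes osteonectin, a secreted protein that binds collagen and calcium and is made by stellate and endothelial cells. It varied little within a genotype. Its values were 9.59, 9.36 and 9.09 in Keap1-HKO livers, 8.62, 9.01 and 8.80 in Keap1-KD livers, 9.57, 9.17 and 9.34 in Nrf2-null livers and 9.17, 9.16 and 8.86 in Wild-type livers. Keap1-KD livers were the low group: Keap1-HKO livers lay above them by 0.54 (95% interval 0.15 to 0.93, adjusted p = 0.215) and the difference of Keap1-KD from Nrf2-null livers was -0.55 (-0.94 to -0.16, adjusted p = 0.239), both without overlap. Without the 3 arrays with muscle or pancreas mRNA, the difference between Keap1-HKO and Keap1-KD livers was 0.78 (adjusted p = 0.035), with Keap1-HKO replicate 1, an array that stood apart, as its only Keap1-HKO array. Between Keap1-HKO and Wild-type livers it was 0.29 with all arrays (adjusted p = 0.392) and 0.58 without these 3 (adjusted p = 0.093). Nrf2-null and Keap1-HKO livers had nearly equal means, 9.36 and 9.35, so the Sparc means were not in the order of Nrf2 activity in hepatocytes. The stellate and endothelial cells that make Sparc still carry the Keap1-KD allele in Keap1-HKO livers. With all arrays no difference of Sparc between genotypes passed the test. The other probe set of Sparc gave 0.37 between Keap1-HKO and Keap1-KD livers (adjusted p = 0.431 over all probe sets), without overlap. It gave -0.31 in Keap1-KD against Nrf2-null livers (adjusted p = 0.644) and 0.17 in Nrf2-null against Wild-type livers, both with overlap.

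The small proteoglycans had lower means in Keap1-HKO and Keap1-KD livers than in Wild-type livers, by differences that did not pass the test. Bgn encodes biglycan, which binds collagen fibrils and TGF-beta. Its values were 8.86, 9.41 and 9.20 in Keap1-HKO livers, 8.62, 9.30 and 9.16 in Keap1-KD livers, 9.33, 9.72 and 9.24 in Nrf2-null livers and 9.41, 9.77 and 9.51 in Wild-type livers. Both Keap1-HKO and Keap1-KD livers lay under Wild-type livers without overlap, Keap1-HKO replicate 2 by less than 0.01. The log2 fold changes were -0.41 in Keap1-HKO livers (95% interval -0.91 to 0.08, adjusted p = 0.336) and -0.54 in Keap1-KD livers (-1.03 to -0.05, adjusted p = 1), and without the 3 arrays with muscle or pancreas mRNA they were -0.61 and -0.44. The 3 probe sets of Bgn had the same sign in both comparisons, with -0.41, -0.19 and -0.27 in Keap1-HKO livers and -0.54, -0.34 and -0.42 in Keap1-KD livers. The groups of the probe set with -0.19 overlapped.

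Dcn encodes decorin, a close relative of biglycan that stellate cells and portal fibroblasts secrete. Its values were 9.45, 10.53 and 9.93 in Keap1-HKO livers, 9.41, 10.54 and 10.09 in Keap1-KD livers, 9.82, 10.82 and 10.86 in Nrf2-null livers and 10.50, 11.26 and 10.44 in Wild-type livers. Wild-type livers had the highest mean, but replicates 2 of the Keap1-HKO and Keap1-KD livers lay within the Wild-type range. The log2 fold changes against Wild-type livers were -0.76 in Keap1-HKO livers (95% interval -1.66 to 0.13, adjusted p = 0.33), -0.72 in Keap1-KD livers (-1.61 to 0.18, adjusted p = 1) and -0.24 in Nrf2-null livers (-1.13 to 0.66, adjusted p = 0.859). Without the 3 arrays with muscle or pancreas mRNA they were -1.02 in Keap1-HKO livers, -0.45 in Keap1-KD livers and 0.027 in Nrf2-null livers. Replicate 1 had the lowest value in Keap1-HKO, Keap1-KD and Nrf2-null livers alike, and replicate 1 of the Keap1-HKO and Nrf2-null livers are the arrays that stood apart.

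Members whose groups did not overlap were counted in each direction. In Keap1-HKO against Wild-type livers 1 of 8 was higher on every array and 1 of 8 was lower, where 12.7% and 14.9% of all genes were. The lower gene was Bgn, and another of its probe sets overlapped there. In Keap1-KD against Wild-type livers the counts were 2 of 8 higher and 1 of 8 lower, larger shares than the 7.02% and 8.21% of all genes. Of the 2 higher genes 1 was Col4a2, which is in the table only through the groups where it is high. In Nrf2-null against Wild-type livers Sparc was higher on every array, by 0.30, and none was lower, against 12.1% and 8.76%. The other probe set of Sparc overlapped there. Between Keap1-HKO and Keap1-KD livers 3 of 8, Col1a2, Sparc and Vim, were higher on every array and none was lower, against 9.22% and 9.48%. The 3 of 8 is a larger share than that of all genes, and Keap1-HKO replicates 2 and 3, which carried muscle and pancreas mRNA, are among the arrays it rests on. The median log2 fold change of the 8 genes was 0.30, -0.40 and -0.13 in Keap1-HKO, Keap1-KD and Nrf2-null livers against Wild-type, beside -0.01, -0.01 and 0.02 for all genes. The members did not share a direction: against Wild-type livers, 5 of the 8 log2 fold changes were above 0 in Keap1-HKO livers, and 2 were in Keap1-KD livers. Col4a2, whose direction here the filter of the table favours, is among them in both and also enters the medians.

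The order of the genotypes differed from gene to gene. Keap1-HKO livers had the highest mean for Col1a2, Col4a1 and Vim, Wild-type livers for Col3a1, Dcn and Bgn, Nrf2-null livers for Sparc and Keap1-KD livers for Col4a2. Col4a2 is in the table only through its Keap1-HKO and Keap1-KD means. Keap1-KD livers had the lowest mean for Col1a2, Col3a1, Sparc, Bgn and Vim. Of the 24 pairs of neighbouring genotypes in these 8 orders none passed the test by limma. The 1 pair with an unadjusted p under 0.05, also the 1 called by Duncan's test, was Keap1-KD above Wild-type for Col4a1.

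The spread between mice set these genes apart from each other. The SD within genotypes, pooled over the 4, was 0.76 for Col3a1 and 0.75 for Col1a2, larger than that of 90.1% and 90.0% of all genes tested. It was 0.54 for Dcn, 0.53 for Vim and 0.46 for Col4a2, and 0.28 for Bgn, 0.21 for Sparc and 0.19 for Col4a1, below the median of all genes, 0.29. Keap1-KD replicate 1 had the lowest value of the 12 arrays for 5 of the 8 genes, and Wild-type replicate 2 had the highest for Col3a1, Dcn and Bgn. The gene whose profile over the 12 arrays was most like the median profile of the 8 was Nid1, nidogen-1, which links collagen IV to laminin in basement membranes. Its mean absolute difference from that profile was 0.13, and the next were Akap13 (0.13), Xbp1 (0.16), Irf2bpl (0.17) and Rsu1 (0.18). Nid1 read 7.47, 8.11 and 7.78 in Keap1-HKO livers, 7.51, 7.72 and 7.72 in Keap1-KD livers, 7.85, 7.72 and 7.51 in Nrf2-null livers and 7.66, 8.23 and 7.68 in Wild-type livers. It was highest on the same arrays as Col1a2 and Col3a1, which its choice by profile favours.

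Other genes of the matrix were read from 6 lists of collagens, basement membrane proteins, glycoproteins and proteoglycans, collagen-modifying enzymes, matrix proteases and TGF-beta and PDGF signalling, of which 30 of 146 genes were measured. In Keap1-HKO against Wild-type livers 0 of 30 rose and 1 fell, where 3.94% of all genes were called. At an unadjusted p under 0.05, 2 were higher and 5 lower (18.6% of all genes), and Duncan's test called 6 (12%). The gene that fell was Mmp14, the membrane-bound matrix metalloproteinase that cleaves collagen I and activates pro-MMP2. It read 6.15, 6.10 and 6.37 in Keap1-HKO livers, 7.73, 7.48 and 7.49 in Keap1-KD livers, 7.87, 7.77 and 8.21 in Nrf2-null livers and 7.63, 7.62 and 7.66 in Wild-type livers. Its log2 fold change was -1.43 ± 0.15 (SE, adjusted p = 0.000444 by limma), and it passed in Keap1-HKO against Keap1-KD (-1.36, adjusted p = 0.00101) and Nrf2-null livers (-1.74, adjusted p = 4.76e-05) as well. The Keap1-HKO values lay under an intensity of 100, whether or not the array carried muscle or pancreas mRNA. With values raised to an intensity of 100, the log2 fold change of Mmp14 in Keap1-HKO livers was smaller. It was -0.99 against Wild-type, -0.92 against Keap1-KD and -1.30 against Nrf2-null livers, and limma still called each.

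In Keap1-KD and in Nrf2-null against Wild-type livers 0 of the 30 genes passed by limma, where 0.0683% and 0.41% of all genes did. In Keap1-KD livers 1 had an unadjusted p under 0.05 (2.54% of all genes) and Duncan's test called 0 (2.25%), and in Nrf2-null livers 2 did (6.92%) and Duncan's test called 4 (5.4%). Between Keap1-HKO and Nrf2-null livers 2 rose and 4 fell, where 9.14% of all genes were called. Mmp19, a secreted matrix metalloproteinase, was higher by 0.997 (adjusted p = 0.00214 by limma), and Pdgfc, a ligand of PDGF receptor alpha, by 0.87 (adjusted p = 0.0369). The Nrf2-null and Wild-type means of Mmp19 lay under an intensity of 100. Mmp19 is thus in the table only through its Keap1-HKO and Keap1-KD means, and the filter favours its direction and its call. The 4 genes that fell were Mmp14, Fn1, which encodes fibronectin and is made in bulk by hepatocytes (-0.76, adjusted p = 0.0193), Tgm2, a transglutaminase that crosslinks matrix proteins (-0.75, adjusted p = 0.0109), and Smad4, the shared mediator of TGF-beta signalling (-0.55, adjusted p = 0.0148). Pdgfc was named after its value was seen.

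Of the genes that mark stellate cells 9 of 21 were measured, and none passed the limma test in any comparison with Wild-type livers. At an unadjusted p under 0.05, 4 of 9 were lower in Keap1-HKO livers, 1 of 9 in Keap1-KD livers and 0 in Nrf2-null livers, where 18.6%, 2.54% and 6.92% of all genes passed in either direction. Duncan's test called 0 in each, where it called 12%, 2.25% and 5.4% of all genes. Reln, which encodes reelin and marks stellate cells in liver, read 7.84, 8.04 and 8.52 in Keap1-HKO livers, 7.84, 8.96 and 8.76 in Keap1-KD livers, 8.53, 9.13 and 8.74 in Nrf2-null livers and 9.11, 9.47 and 9.04 in Wild-type livers. Its log2 fold change in Keap1-HKO against Wild-type livers was -1.07 ± 0.30 (adjusted p = 0.0895), and that of Ecm1, extracellular matrix protein 1, was -1.03 ± 0.30 (adjusted p = 0.0993), both without overlap. Lrat, the enzyme that stores retinol as its esters in stellate cells, read 3.52, 5.97 and 6.96 in Keap1-HKO livers, 7.87, 7.52 and 8.14 in Keap1-KD livers, 4.76, 8.07 and 8.59 in Nrf2-null livers and 8.06, 8.03 and 8.50 in Wild-type livers (adjusted p = 0.184 for Keap1-HKO against Wild-type). Its low values included the 2 arrays that stood apart. Summed over the 9 markers, the intensity ranged from 2550 to 2875 in Keap1-HKO livers, from 2661 to 4102 in Keap1-KD livers, from 3511 to 4726 in Nrf2-null livers and from 3944 to 4723 in Wild-type livers.

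**Figure D4:**
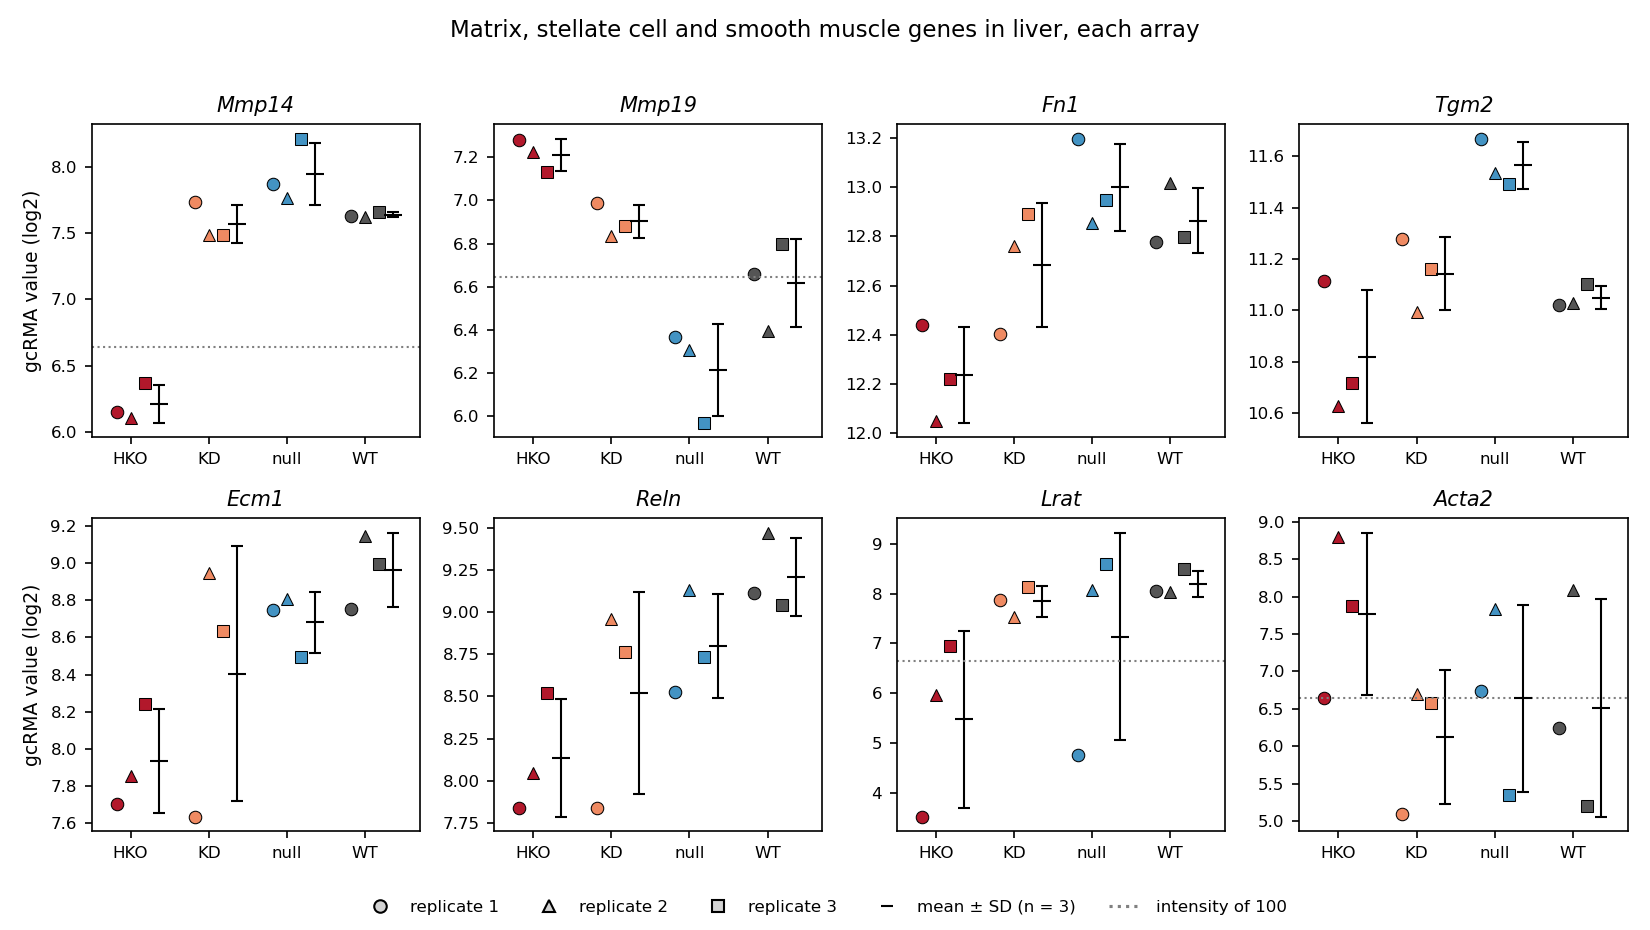
Log2 value (y axis) on each of 12 arrays of 4 genes of matrix turnover and structure (upper row), 3 genes of stellate cells and matrix (Ecm1, Reln and Lrat) and the smooth muscle gene Acta2 (lower row), by genotype, with the mean and SD of 3 mice and a dotted line at an intensity of 100. Mmp14 lies at 6.37 or below in the 3 Keap1-HKO livers and at 7.48 or above in the other 9.

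Markers of activated stellate cells and smooth muscle did not pass either. Acta2, smooth muscle actin, read 6.64, 8.80 and 7.88 in Keap1-HKO livers, 5.10, 6.70 and 6.58 in Keap1-KD livers, 6.74, 7.84 and 5.34 in Nrf2-null livers and 6.24, 8.09 and 5.20 in Wild-type livers (Keap1-HKO against Wild-type, log2 fold change 1.26, adjusted p = 0.429). Its 3 highest arrays were those with muscle mRNA. Of the 4 measured genes of this list (of 12) none had an unadjusted p under 0.05 by limma or a call by Duncan's test against Wild-type livers. The shares of all genes were 18.6% and 12% in Keap1-HKO, 2.54% and 2.25% in Keap1-KD and 6.92% and 5.4% in Nrf2-null livers. Among other cell types, 0 of 18 endothelial genes, 0 of 12 genes of Kupffer cells and macrophages and 0 of 3 cholangiocyte genes passed in Keap1-HKO against Wild-type livers by limma (3.94% of all genes). In each of these lists 2 genes had an unadjusted p under 0.05 (18.6% of all genes), and Duncan's test called 1 endothelial, 0 Kupffer cell and 1 cholangiocyte gene (12%). The 3 cholangiocyte genes measured, of 13 listed, were Krt8, Krt18 and Cdh1. Krt19, Krt7 and Epcam were not measured, so these counts are not a reading of cholangiocytes. Summed over the endothelial genes, the intensity ranged from 6723 to 7452 in Keap1-HKO livers and from 6782 to 7357 in Wild-type livers. The median of the 18 endothelial genes was higher on every Keap1-HKO array, 7.47 to 7.75, than on every Wild-type array, 7.26 to 7.32. The Keap1-KD arrays, 7.33 to 7.44, and the Nrf2-null arrays, 7.33 to 7.73, also lay above every Wild-type array. In Keap1-HKO against Wild-type livers 5 of the 18 were higher without overlap and 0 lower (12.7% and 14.9% of all genes). The counts were 1 and 0 in Keap1-KD livers (7.02% and 8.21%) and 4 and 0 in Nrf2-null livers (12.1% and 8.76%). Endothelial cells make collagen IV, and the part of these cells in the Col4a1 values was not tested. In Keap1-HKO against Wild-type livers, where limma called 3.94% of all genes, Fgb, the fibrinogen beta chain, fell among 19 hepatocyte genes (-0.46, adjusted p = 0.0497). At an unadjusted p under 0.05, 5 of the 19 were lower (18.6% of all genes in either direction). Alas2, the heme synthesis enzyme of red cell precursors, fell among 2 red blood cell genes (-1.42, adjusted p = 0.0178).

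**Figure D5:**
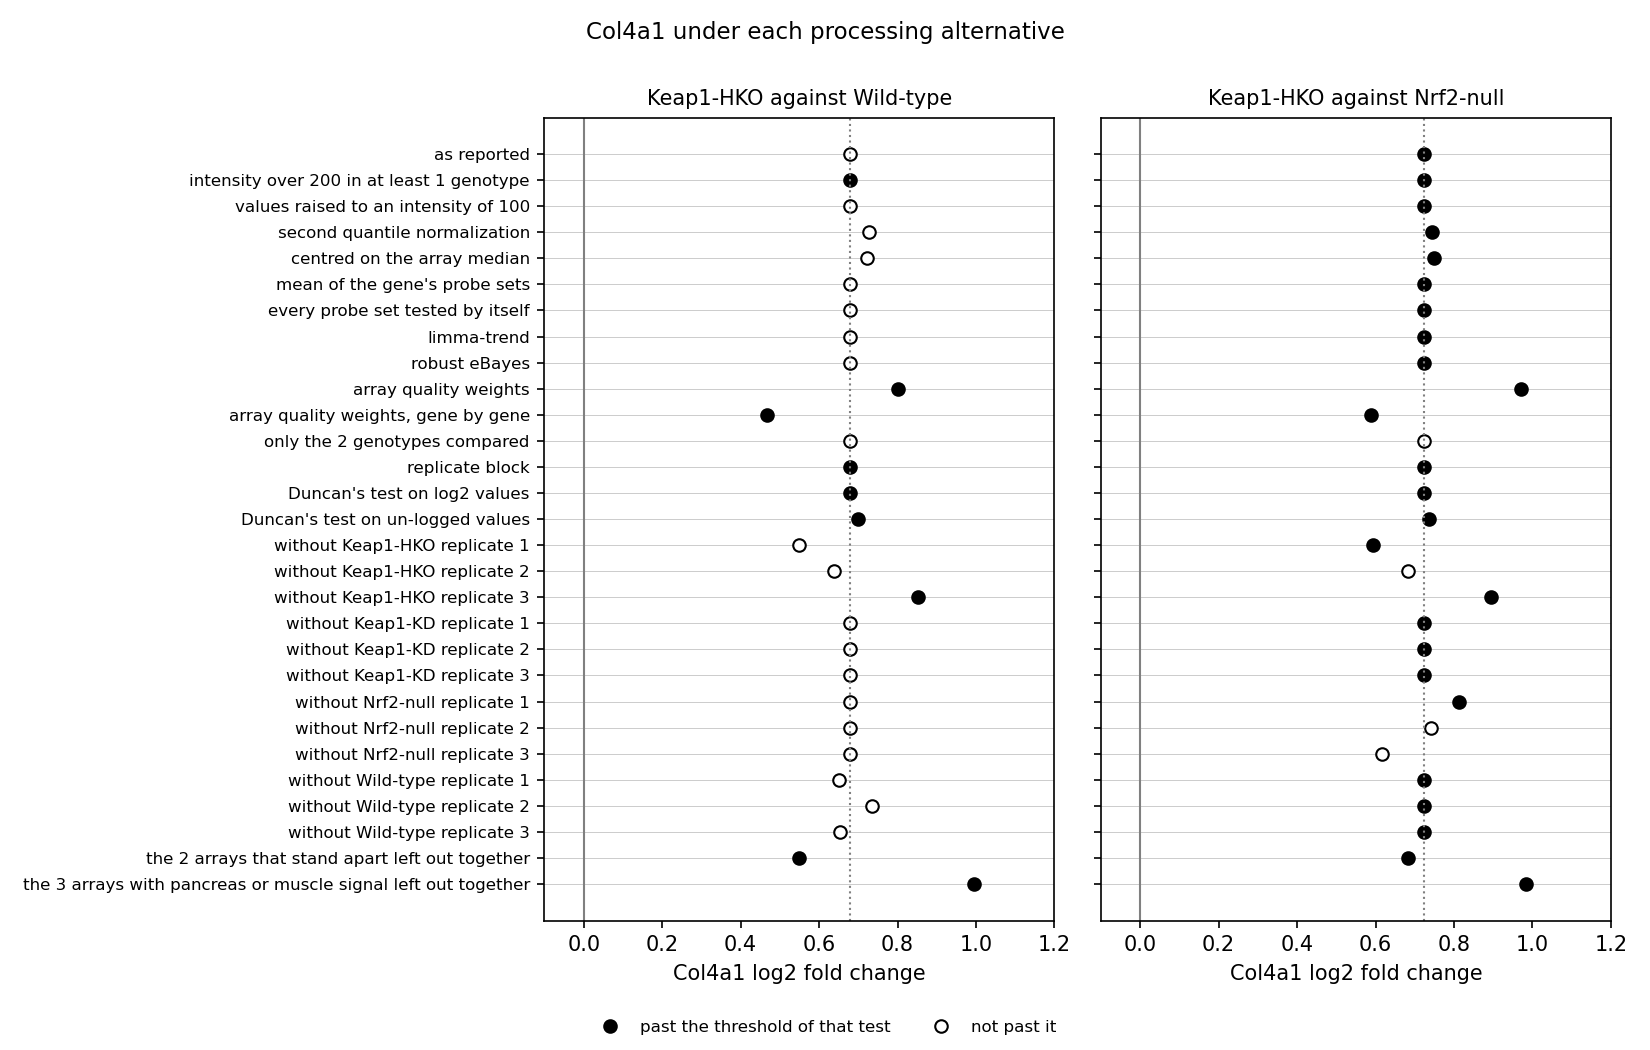
Log2 fold change of Col4a1 (x axis) in Keap1-HKO against Wild-type livers and in Keap1-HKO against Nrf2-null livers as reported and under each of 28 alternatives in processing (y axis), filled where that test called the difference. All values lie above 0.4 in both comparisons, but the call changes from row to row.

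The direction of Col4a1 held under all 28 alternatives in both comparisons, and its call did not. In Keap1-HKO against Wild-type livers the log2 fold change ranged from 0.47 to 0.995 and the adjusted p from 0.0119 to 0.262, and 9 of the 28 alternatives called it. It was 0.995 (adjusted p = 0.0146) without the 3 arrays with muscle or pancreas mRNA, 0.55 (adjusted p = 0.0371) without the 2 arrays that stood apart and 0.85 (adjusted p = 0.0206) without Keap1-HKO replicate 3. Between Keap1-HKO and Nrf2-null livers the call was lost without Keap1-HKO replicate 2 (0.68, adjusted p = 0.0658), without Nrf2-null replicate 2 (0.74, adjusted p = 0.066) and without Nrf2-null replicate 3 (0.62, adjusted p = 0.0995), and with only these 2 genotypes in the fit (adjusted p = 0.248).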

How the data were processed

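Total liver RNA of 12 mice was labelled and hybridized to Affymetrix mouse genome arrays, 1 per mouse. The authors made the deposited log2 values with GCRMA in R (version not given in the sources used here) and kept probe sets whose intensity exceeded 100 in at least 1 genotype, so that a gene can be in the table through its highest genotype alone. Scanner files were not used here.

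Probe sets with 1 gene symbol in GEO's platform annotation were kept, and those with several (371) or none (697) were left out. The probe set with the highest mean over all arrays stood for its gene. The 5856 genes entered 1 linear model of all 4 genotypes (lmFit, then eBayes, of limma 3.58.1 under R 4.3.3), with no covariate. P-values were adjusted by Benjamini and Hochberg over all genes tested in each comparison, and those with an adjusted p under 0.05 count as called. The table has no counts, and the number of arrays limits the precision. One-way ANOVA followed by Duncan's test, the methods' own test, was an alternative. The script was tested on simulated data.

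The members and gene lists were chosen with earlier results of these data known. Named are all members and their probe sets, in each other list up to 3 genes of lowest adjusted p in Keap1-HKO or Nrf2-null against Wild-type livers and its first 3 genes, and the 8 genes most like the members in profile. Alternatives changed the filter, the normalization, the probe set rule, the form of the fit, its samples and single arrays.

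Replicate numbers come from the labels, which do not say that they mark a litter or day. Deviations from the genotype means correlated at over 0.1 in each of the 3 pairs of equal number between Keap1-HKO and Keap1-KD (0.105 to 0.215), Keap1-HKO and Nrf2-null (0.685 to 0.787) and Keap1-KD and Nrf2-null livers (0.149 to 0.29). Between Keap1-HKO and Nrf2-null livers, replicates 2 and 3 of unequal number correlated too, at 0.622 (Keap1-HKO 3 with Nrf2-null 2) and 0.426 (Keap1-HKO 2 with Nrf2-null 3). The pairs of unequal number with a replicate 1, the arrays that stood apart, lay between -0.799 and -0.582. If equal numbers mark pairs, the reported tests leave that out. The reported fit has no replicate term, as in the study's methods, and the fit with the replicate number as a block was an alternative, which changed no call in these 3 comparisons. In each of the 3 comparisons with Wild-type livers 2 of the 3 pairs were over 0.1 (-0.157 to 0.394, -0.0556 to 0.201 and 0.0722 to 0.215). Of the 6 arrays of a comparison, 6 correlated best with their own number for Nrf2-null with Keap1-HKO and with Wild-type livers, and 4 in each other comparison. Whether the numbers mark pairs is not settled by these values.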

Additional observations from a re-analysis of the deposited data

How the results depend on the processing

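Over 28 alternatives per result, 896 of 976 log2 fold changes of the members kept their direction and their side of the threshold, 27 came past it, 4 lost it and 49 changed sign. Counts of members called moved in 28 cases and stayed within 1.5 times in 140. In Keap1-HKO against Wild-type livers the count was 0 and became 1, Col4a1 each time, with an intensity over 200 required, with either form of array weights, with either scale of Duncan's test, without the 2 arrays that stood apart and without the 3 arrays with muscle or pancreas mRNA, and it ranged from 0 to 1 when 1 array was left out. The replicate number as a block also gave 1 there, and it changed no other call. In Keap1-KD against Wild-type livers the count of 0 became 1 with either form of weights and by Duncan's test on either scale. In Nrf2-null against Wild-type livers it became 2 with array quality weights, an estimate that stopped before it converged. Between Keap1-HKO and Keap1-KD livers it became 1 by Duncan's test on either scale and without the 3 arrays. The count of 1 between Keap1-HKO and Nrf2-null livers became 2 with either form of weights, 0 with only these 2 genotypes in the fit, and ranged from 0 to 1 when 1 array was left out. Between Keap1-KD and Nrf2-null livers the count of 0 became 4 with array quality weights, 3 with weights estimated gene by gene, 2 by Duncan's test on either scale and 1 without the 2 arrays. The gene-by-gene weights and the alternatives for the pairs with Nrf2-null as the baseline were chosen after seeing the data. The cause of these changes was not tested.

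The signs that turned belonged to differences that were not called. Col4a2 in Nrf2-null against Wild-type livers was 0.087 with values raised to an intensity of 100 and 0.062 after a second quantile normalization. With array quality weights, Col3a1 was 1.06 in Keap1-HKO against Wild-type livers, Col1a2 0.10 and Vim 0.26 in Keap1-KD against Wild-type livers, and Dcn 0.30 in Nrf2-null against Wild-type livers and 0.36 in Keap1-HKO against Keap1-KD livers. With weights estimated gene by gene, Col3a1 was 0.14 in Keap1-HKO, Vim 0.18 in Keap1-KD, and Col1a2 0.0059 and Dcn 0.23 in Nrf2-null against Wild-type livers, and Col4a1 was -0.081 in Keap1-HKO against Keap1-KD livers. Without the 2 arrays that stood apart, Col3a1 was 0.047 in Keap1-HKO and Dcn 0.10 in Nrf2-null against Wild-type livers, and Dcn 0.21 in Keap1-HKO against Keap1-KD livers. Without the 3 arrays with muscle or pancreas mRNA, Col3a1 was 0.072 in Keap1-HKO and Vim 0.24 in Keap1-KD against Wild-type livers. In Nrf2-null against Wild-type livers the values without these 3 arrays were 0.35 for Col1a2, 0.28 for Col3a1, 0.011 for Col4a1, 0.023 for Col4a2, 0.027 for Dcn and 0.32 for Vim, and in Keap1-HKO against Keap1-KD livers they were 0.45 for Col4a2 and -0.17 for Bgn.

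When 1 array was left out, the log2 fold change in Keap1-HKO against Wild-type livers ranged from -0.20 to 0.85 for Col1a2 and from -0.55 to 0.46 for Col3a1, and that of Vim in Keap1-KD against Wild-type livers from -0.35 to 0.24. In Nrf2-null against Wild-type livers the ranges were -0.60 to 0.35 for Col1a2, -0.73 to 0.28 for Col3a1, -0.13 to 0.063 for Col4a1, -0.45 to 0.25 for Col4a2, -0.42 to 0.10 for Dcn and -0.27 to 0.32 for Vim. In Keap1-HKO against Keap1-KD livers they were -0.34 to 0.11 for Col4a2, -0.35 to 0.22 for Dcn and -0.079 to 0.28 for Bgn. With 3 mice per genotype and SDs near 0.75 for Col1a2 and Col3a1, the 95% intervals of these genes against Wild-type livers were over 2 wide on the log2 scale. Fewer than 1 in 4 genes of the other matrix lists were measured, and Col4a2, Mmp14, Mmp19, Acta2, Lrat and Col1a2 had values near or under an intensity of 100 on some arrays.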
